A study of Homo sapiens with 48 samples.

Results

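Transcripts of 39 genes that copy DNA, supply its nucleotides or govern entry into S phase were followed across 48 Illumina HumanHT-12 bead arrays. The genes were chosen by name, with earlier results of these data known. Each was represented by its brightest probe among those with 1 gene symbol and a detection p under 0.01 on at least 3 arrays. This kept 38 of 39 genes, out of 11212 genes measured over the series. CCNE2 was detected on 0 arrays and has no value here. By role, 16 genes load or fire the helicase, 14 work at the fork, 4 supply nucleotides and 4 belong to the G1/S switch or to S phase.

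RNA came from 2 human breast cancer cell lines, MDA-MB-231, a mesenchymal line without hormone receptors, and EVSA-T. BV6, a Smac mimetic that antagonises inhibitor of apoptosis proteins and so switches on NF-κB signalling, was given at 50 nM to MDA-MB-231 and at 5 nM to EVSA-T. MDA-MB-231 cells carried control siRNA (siCtrl) or siRNA against TNFR1, RELA or IRF1 and were harvested after 9 h with or without BV6, making 8 groups of 3 arrays. For EVSA-T, siCtrl and siTNFR1 cells with the same 2 treatments made 4 groups of 2 arrays. The protocol in the labels names 5 nM control or TNFR1 siRNA and 36 h of transfection, and gives no dose for the RELA and IRF1 siRNAs. A kinetic experiment used MDA-MB-231 cells without siRNA, sampled at 5 times of BV6 (3, 6, 9, 12 and 15 h) and untreated at 0, 9 and 15 h, making 8 groups of 2 arrays. The siRNA knockdowns were transient, the number of sequences in each siRNA is not given in the labels, and no label says that replicates were separate cultures, so p-values measure only the spread between these arrays, which may be technical.

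Replication begins when the origin recognition complex (ORC1, ORC6) with CDC6 and CDT1 loads the MCM2 to MCM7 ring onto DNA in G1. CDC45 and the GINS complex then join MCM to form the active helicase, with MCM10 needed for firing. At the fork, primase (PRIM1) and polymerase alpha (POLA2) start each strand, replication factor C (RFC2 to RFC5) loads the PCNA clamp for polymerases delta and epsilon (POLD1, POLE2), RPA covers single-stranded DNA, and FEN1 and LIG1 finish the lagging strand. Ribonucleotide reductase (RRM1, RRM2), thymidylate synthase (TYMS) and thymidine kinase (TK1) supply deoxynucleotides. Cyclin E (CCNE1) and E2F1 drive the G1/S switch, and E2F factors bind promoters of many of these genes. UHRF1 maintains DNA methylation behind the fork, and SLBP processes histone transcripts in S phase.

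Promoters show how widely the E2F-type sequence is shared within these genes. RefSeq promoters (GRCh38.p14, a window of fixed length around the gene's start) were at hand for 33 of the 39 genes. The motif TTTNNCGC, searched on both strands, was present in 19 of 33, or 57.6%, against 6.9% of all 27305 promoters of the same length. Its special case TTTCCCGC was in 10 of 33 (30.3% against 1.66%), and TTTGGCGC in 5 of 33 (15.2% against 0.659%). The CCAAT box was in 18 of 33 (54.5% against 35.7%). A match describes these letters only. Below are the 100 bases before the start of 4 genes to which later results return, 5′ to 3′ on the gene's strand, with a match to TTTNNCGC on either strand in capitals. GINS2, RFC3 and POLA2 hold 1 match each, and CCNE1, whose levels differed most with RELA siRNA, holds none in its promoter.
GINS2, chr16:85688955-85689054, minus strand: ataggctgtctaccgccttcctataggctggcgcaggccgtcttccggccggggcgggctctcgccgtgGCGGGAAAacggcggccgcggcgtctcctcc
RFC3, chr13:33818049-33818148, plus strand: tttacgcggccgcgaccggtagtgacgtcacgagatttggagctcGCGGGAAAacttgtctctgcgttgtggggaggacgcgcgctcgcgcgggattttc
POLA2, chr11:65261862-65261961, plus strand: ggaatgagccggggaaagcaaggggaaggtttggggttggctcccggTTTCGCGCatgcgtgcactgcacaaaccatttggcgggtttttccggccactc
CCNE1, chr19:29811891-29811990, plus strand: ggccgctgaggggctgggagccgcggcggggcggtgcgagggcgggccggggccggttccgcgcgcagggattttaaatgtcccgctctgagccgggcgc
The match starts 31 bases before the start in GINS2, 55 in RFC3 and 53 in POLA2.

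Between 10167 and 13072 probes were detected per array. Of the 38 genes, 27 were detected on all 48 arrays. The dimmest were GINS1 (3 arrays), CDC6 (5), E2F1 (14) and ORC1 (19). The knockdowns were visible in their targets. TNFRSF1A, the gene of TNFR1, was detected on 0 arrays of siTNFR1 cells, at a log2 signal of 6.03 or lower in MDA-MB-231 against 9.69 or higher in siCtrl cells, and at 6.56 or lower against 8.66 or higher in EVSA-T. RELA was detected on 0 siRELA arrays (5.42 or lower against 6.92 or higher), and IRF1 fell by 3.35 ± 0.25 in untreated cells (log2 difference ± SE, -3.39 ± 0.25 with BV6). Of 6 mesenchymal markers, VIM, CD44 and CAV1 were detected on 40 of 40 MDA-MB-231 arrays, SNAI2 on 38, ZEB1 on 5 and FN1 on 0, and VIM also on 8 of 8 EVSA-T arrays. Of 8 luminal markers, CDH1 and FOXA1 were detected on 8 of 8 EVSA-T and 0 of 40 MDA-MB-231 arrays, KRT8, KRT19 and EPCAM on every array of both lines, and SPDEF on 8 of 8 and 31 of 40. Against the luminal label, GATA3 was detected on 0 of 8 EVSA-T arrays and KRT18 on 4 of 8, against 38 of 40 in MDA-MB-231. Of the leukocyte markers, CD14 was detected on 18 of 40 MDA-MB-231 and 1 of 8 EVSA-T arrays, PTPRC on 0, and LYZ and CD3E on 2 or fewer.

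Levels below are normalized log2 signals and differences are log2 of the first group over the second, ± SE. A gene was called when limma's adjusted p (Benjamini-Hochberg over all genes tested) was under 0.05. Between 2 sets of arrays, every replication gene called had sets that did not overlap, so that non-overlap adds no support to a call. Of 37 genes tested in at least 1 of 19 comparisons of BV6 or an siRNA, 26 were called in at least 1 and 11 in none, against 49.4% of all genes called in at least 1. The genes were chosen with earlier results of these data known, and 27 of 38 were detected on all arrays. An excess of calls among them is therefore not shown. GINS1 entered none of these fits. Where a single slide, or leaving out an array, left 1 array in a group, its spread was taken from the other groups.

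The first question was what BV6 did to these transcripts in siCtrl MDA-MB-231 cells after 9 h. CCNE1 rose and PRIM1 fell, 2 of 36 genes tested, against 2.54% of all genes called, a share that would come to about 1 of 36. CCNE1 read 7.64, 8.01 and 7.78 on the untreated arrays and 8.14, 8.46 and 8.66 with BV6. The groups did not overlap, and the difference was 0.61 ± 0.15 (adjusted p = 0.0227). PRIM1, the catalytic primase subunit, read 9.55, 9.68 and 9.50 without BV6 and 8.92, 9.21 and 9.03 with it. All BV6 arrays lay below all untreated ones, a difference of -0.53 ± 0.11 (adjusted p = 0.00756). PRIM1, like the genes outside the 8 with the smallest adjusted p, was picked for per-array values after its values were seen.

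RFC3 and RFC4, subunits of the clamp loader, were the other genes among the 3 lowest, at -0.58 (adjusted p = 0.0552) and -0.49 (adjusted p = 0.0738). Both passed with the replicate number as a block, where 4 genes were called (adjusted p = 0.0405 for RFC3 and 0.0168 for RFC4). The highest values after CCNE1 were POLD1 at 0.28 and E2F1 at 0.23, neither called. The median over the 36 genes was -0.11 against -0.02 over all genes, and 24 were below 0. In bulk RNA, fewer cells in S phase and less transcript per cell cannot be told apart. Within slide 1 and slide 2 alone, CCNE1 differed by 0.48 and 0.88, and PRIM1 by -0.56 and -0.47, with none called there and 1 array per group on slide 2. CCNE1 lost its call without untreated replicate 1 or 3 or BV6 replicate 2 or 3 (0.49 to 0.59, adjusted p 0.0747 to 0.144), and PRIM1 without BV6 replicate 1 (-0.46, adjusted p = 0.0643).

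Genes outside the 38 that bear on S phase entry gave a background to these values. CDKN1A, the gene of the CDK inhibitor p21, rose by 0.83 ± 0.16 (adjusted p = 0.00253), and MYC by 0.59. Over the lists of related genes, 12 of 12 NF-κB targets rose.

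The same BV6 treatment was then read in cells with siRNA against TNFR1, RELA or IRF1. No replication gene was called in any of these 3 backgrounds. In siTNFR1 cells, 1.33% of all genes were called, and 12 of 36 replication genes had an unadjusted p under 0.05 in limma, as had 11.5% of all genes. The median there was -0.24 against -0.02 over all genes, and 31 of 36 lay below 0. POLA2 was lowest at -0.60, followed by CDT1 at -0.45 and PRIM1 at -0.43, with adjusted p = 0.0536 for both POLA2 and PRIM1. CCNE1 was highest at 0.41 (adjusted p = 0.23).

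In siRELA cells, 0.303% of all genes were called and 1 replication gene had an unadjusted p under 0.05, as had 5.9% of all genes. CCNE1, which read 8.95, 8.83 and 8.92 without BV6 in these cells, read 9.06, 8.81 and 8.90 with it. The groups overlapped, with a difference of 0.02 and a 95% interval from -0.28 to 0.33. In siIRF1 cells, 0.847% of all genes were called, 4 replication genes had an unadjusted p under 0.05 (8.69% of all genes), and CCNE1 stood at 0.30 (adjusted p = 0.608).

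PRIM1 was below 0 in each of the 4 backgrounds, at -0.53 with siCtrl, -0.43 with siTNFR1, -0.24 with siRELA and -0.35 with siIRF1. Tests of whether the BV6 response differed between a knockdown and siCtrl called none of these genes. The CCNE1 response was 0.59 ± 0.21 lower in siRELA than in siCtrl cells, without passing the test (log2 difference of -0.59, adjusted p = 0.813). At unadjusted p under 0.05 there were 3, 2 and 0 genes for TNFR1, RELA and IRF1, as had 6.34%, 5.24% and 4.55% of all genes, and 0.0105%, 0.0418% and 0.178% of all genes were called. A response called with siCtrl and not with a knockdown is therefore not shown to differ between them. The comparisons within each background share no arrays with each other, but each of these tests uses the siCtrl arrays.

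**Figure D1:**
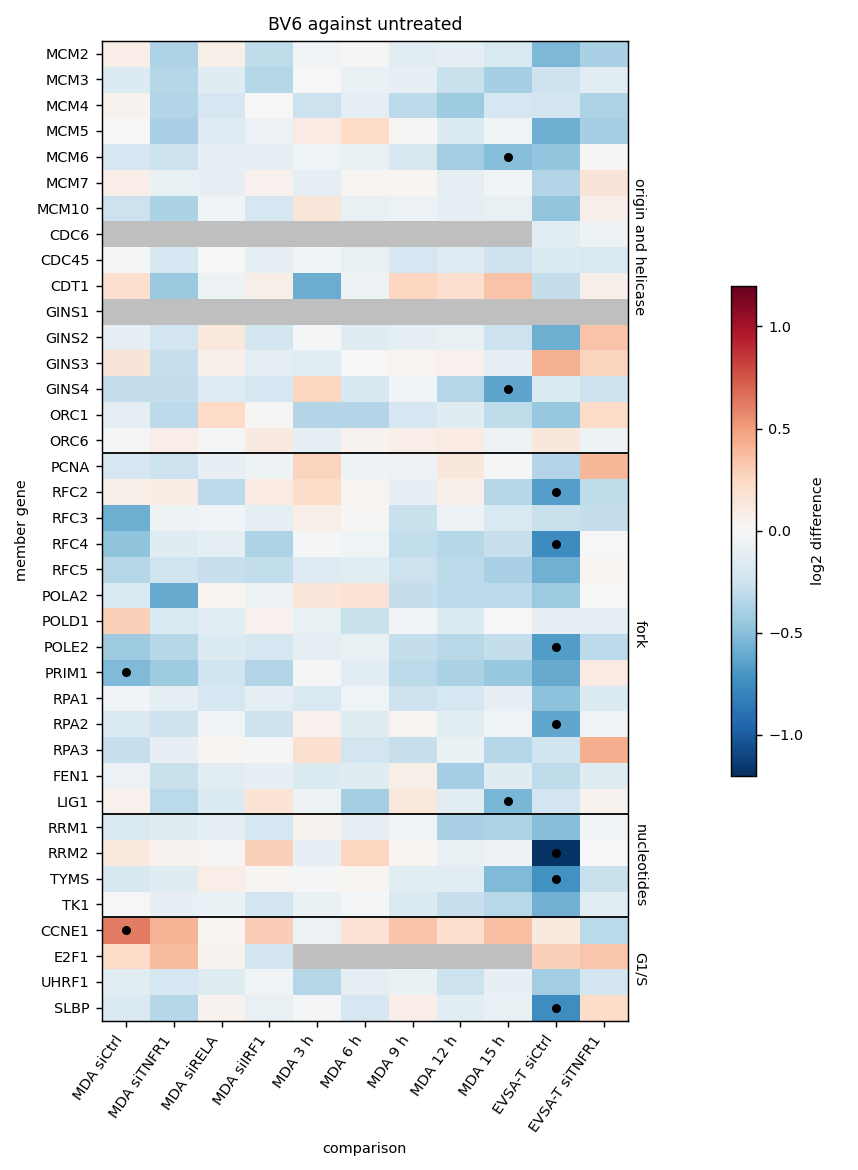
BV6 minus untreated (log2 difference, colour scale ending at 1.2 in each direction) for 38 genes in rows, grouped by role, and 11 BV6 comparisons in columns, with a dot where the gene was called and grey where it was not tested. CCNE1 is positive and PRIM1 negative in the siCtrl column of MDA-MB-231, and the siCtrl column of EVSA-T holds 7 dots, all for lower levels.

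The RELA and IRF1 siRNAs themselves gave more calls than BV6 in MDA-MB-231. RELA encodes the transactivating p65 subunit of NF-κB. With RELA siRNA in untreated cells, CCNE1, GINS3 and TK1 rose, and FEN1, TYMS, RPA3, GINS2 and PRIM1 fell, 8 of 36 genes. CCNE1 was at 8.83 or higher on all 3 siRELA arrays and at 8.01 or lower on all 3 siCtrl arrays. The difference was 1.09 ± 0.15 (adjusted p = 7.14e-06), or 2.13-fold, and stood at 1.07 within slide 1 (2 arrays per group) and 1.14 within slide 2 (1 array per group). That siRNA changed 21.1% of all genes (11.1% higher and 9.97% lower), so 8 of 36 replication genes is close to the share over all genes.

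GINS3, a helicase subunit, read 8.72, 8.35 and 8.37 with siRELA against 7.87, 7.91 and 7.70 with siCtrl. The groups did not overlap, with a difference of 0.65 ± 0.14 (adjusted p = 0.00177). FEN1, the flap endonuclease, read 11.46, 11.33 and 11.33 against 12.20, 11.88 and 11.68, and fell by 0.55 ± 0.12 (adjusted p = 0.00234). Its siRELA arrays lay below every siCtrl array, and a second probe gave -1.12 (adjusted p = 1.16e-05).

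GINS2 read 9.56, 9.24 and 9.50 with siRELA against 9.73, 9.96 and 9.94 with siCtrl, again without overlap (-0.45, adjusted p = 0.0125). It moved opposite to GINS3, its partner in the same 4-protein complex. The remaining changes were smaller, with TYMS at -0.50 (adjusted p = 0.00642), RPA3 at -0.45 (0.00862), PRIM1 at -0.37 (0.0184) and TK1 at 0.33 (0.0478). The other high value was POLD1 at 0.34, not called. TK1 lost its call whichever of the 6 arrays was left out (0.29 to 0.37). GINS2 lost it without siCtrl replicate 2 or 3 or siRELA replicate 2 (adjusted p 0.0514 to 0.0823), and PRIM1 without siCtrl replicate 2 or siRELA replicate 1 (0.0787 and 0.109).

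With BV6 present, the arrays of both siRNAs were separate ones, and 6 of 36 genes were called, no more than the 19.2% over all genes. GINS3 (0.56 ± 0.14, adjusted p = 0.0063) and CCNE1 (0.50 ± 0.15, adjusted p = 0.0172) were again higher with siRELA, joined by RFC4 at 0.45 (adjusted p = 0.03). FEN1 was again lower (-0.61 ± 0.12, adjusted p = 0.000853), with RRM2 at -0.51 (0.0206) and MCM7 at -0.46 (0.0121). On second probes RFC4 stood at 0.31 (adjusted p = 0.108) and MCM7 at -0.71 (adjusted p = 0.0472). RFC2, at -0.55, was not called (adjusted p = 0.0524), but passed with the replicate number as a block (adjusted p = 0.021).

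Untreated and BV6-treated pairs share no arrays. All 8 genes called in untreated siRELA cells had the same sign with BV6, 3 of them were called in both (CCNE1, GINS3 and FEN1), and 28 of 36 genes had the same sign. Such counts were not taken over all genes for any siRNA, so they are not shown to be particular to the replication genes. CCNE1 with BV6 was at 0.64 within slide 1 and 0.24 within slide 2. It lost its call without siCtrl replicate 1 (0.36, adjusted p = 0.122) or siRELA replicate 1 (0.44, adjusted p = 0.0836). GINS3 lost it without siCtrl replicate 3 (0.43, adjusted p = 0.0554), RRM2 without siCtrl replicate 2 or siRELA replicate 3 (0.133 and 0.0843), and RFC4 without any 1 of 4 arrays.

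Among related genes, the histone chaperone NASP fell by 1.34 (adjusted p = 2.5e-06) and the fork protection factor TIPIN by 1.21 (adjusted p = 0.000515) in untreated siRELA cells. Of 30 other replication genes tested, 0 rose and 4 fell. Of 30 mitotic genes, 1 rose and 7 fell, and of 13 further nucleotide synthesis genes, 0 rose and 4 fell. Over all genes 11.1% rose and 9.97% fell with this siRNA.

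IRF1 is a transcription factor of the interferon response. With IRF1 siRNA in untreated cells, 6 genes rose and 1 fell, against 21.8% of all genes called (9.38% higher and 12.5% lower). That is 7 of 36 genes, no more than the share over all genes. Those that rose were GINS3, GINS2, MCM2, POLA2, CDC45 and RRM1, and MCM10 fell. GINS3 read 8.76, 8.80 and 8.84 with siIRF1 against 7.91 or lower with siCtrl, a difference of 0.97 ± 0.14 (adjusted p = 1.79e-05) or 1.96-fold. GINS2 read 10.60, 10.69 and 10.67 against 9.96 or lower, a difference of 0.77 ± 0.13 (adjusted p = 6.12e-05). Neither pair of groups overlapped, and here GINS2 and GINS3 moved the same way.

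MCM10, which helps to fire loaded helicases, read 8.76, 8.96 and 8.70 with siIRF1 against 9.72, 9.34 and 9.69 with siCtrl. It fell by 0.78 ± 0.13 (adjusted p = 9.83e-05), again without overlap. MCM2, a subunit of the ring, read 9.36, 9.01 and 9.24 against 8.75, 8.65 and 8.25, and rose by 0.66 ± 0.16 (adjusted p = 0.004). POLA2, the regulatory subunit of polymerase alpha, was steady at 8.42, 8.41 and 8.45 with siIRF1, whereas siCtrl gave 8.39, 7.89 and 7.54. Of these 3 siCtrl arrays, 2 detected it. The groups came close without crossing, and the difference was 0.49 (adjusted p = 0.0268).

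CDC45 rose by 0.40 (adjusted p = 0.0173) and RRM1 by 0.38 (adjusted p = 0.0389). The other low values were GINS4 at -0.36 and ORC6 at -0.22, neither called. Over the 36 genes the median was 0.14, against 0.00 over all genes. Within slides 1 and 2, GINS3 stood at 0.87 and 1.12, MCM10 at -0.78 and -0.86, GINS2 at 0.76 and 0.73 and MCM2 at 0.66 and 0.88. Slide 1 holds 1 siIRF1 array and slide 2 holds 1 siCtrl array of these groups, so that neither slide replicates both. Without siIRF1 replicate 1 the count was 4. POLA2 lost its call without siCtrl replicate 2 or 3 or any siIRF1 array (0.29 to 0.50), RRM1 without siCtrl replicate 1 or 3 or siIRF1 replicate 1 or 2, and CDC45 without siCtrl replicate 1 or siIRF1 replicate 1 or 3.

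With BV6, IRF1 siRNA gave 5 calls among 36, a smaller share than the 22.2% over all genes. GINS3 (0.71 ± 0.14, adjusted p = 0.000658), GINS2 (0.66 ± 0.13, adjusted p = 0.000389) and POLA2 (0.61 ± 0.16, adjusted p = 0.006) were higher again, and MCM10 was lower again (-0.72 ± 0.13, adjusted p = 0.000258). RFC3 joined them: it read 8.46, 8.19 and 8.21 with siIRF1 and BV6, against 7.51, 7.83 and 7.62 with siCtrl and BV6. The groups did not overlap (0.63 ± 0.16, adjusted p = 0.0059), and only 1 of the 3 siCtrl BV6 arrays detected RFC3. On second probes RFC3 stood at 0.27 (adjusted p = 0.325) and MCM10 at -0.51 (adjusted p = 0.151), not called.

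Under a replicate block the count was 8, CDC45 (adjusted p = 0.0484), RFC4 (0.0378) and RRM1 (0.0262) being added. The 7 genes called in untreated cells all had the same sign with BV6, 4 were called in both, and 28 of 36 genes shared their sign, again without a count over all genes. POLA2 was at 0.37 and 0.75 within slides 1 and 2. All 5 kept their call when any single array was left out.

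TNFR1, the main receptor of TNF, was the third target. In untreated MDA-MB-231 cells, TNFR1 siRNA raised GINS3 and POLA2, 2 of 36 genes, against 3.33% of all genes called and 2.39% for higher levels. GINS3 read 8.44, 8.32 and 8.46 against 7.91 or lower with siCtrl (0.58 ± 0.14, adjusted p = 0.02). POLA2 read 8.56, 8.40 and 8.52 against 8.39, 7.89 and 7.54 (0.56 ± 0.16, adjusted p = 0.0487), and was detected on 2 of the 3 siCtrl arrays. Both pairs of groups were apart, POLA2 by little. GINS2 was the next highest at 0.37 and GINS4 the lowest at -0.42, followed by RRM2 at -0.36 and RFC3 at -0.33, none called.

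The 3 comparisons of an siRNA with siCtrl in untreated cells share the siCtrl arrays, so that a level on these arrays enters each of them. GINS3 differed by 0.58 with siTNFR1, 0.65 with siRELA and 0.97 with siIRF1 against the same 3 arrays. The siTNFR1 count fell to 0 without siCtrl replicate 3, or without siTNFR1 replicate 1 or 3, where GINS3 was at 0.52, 0.56 and 0.55 (adjusted p 0.106, 0.073 and 0.0733). POLA2 lost its call without siCtrl replicate 2 or 3 or any siTNFR1 array, at 0.355 to 0.599. Within slides 1 and 2 GINS3 was at 0.55 and 0.69 and POLA2 at 0.42 and 0.92, with 1 siTNFR1 array on slide 1 and 1 siCtrl array on slide 2.

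With BV6, TNFR1 siRNA gave 1 call, against 4.98% of all genes (2.35% for lower levels). CDT1, the MCM loading factor, fell by 0.72 ± 0.18 (adjusted p = 0.0157). Its siTNFR1 BV6 arrays read 8.17, 7.87 and 7.13, so that 1 array was far below the others. Without that array, replicate 3, the difference was -0.43 (adjusted p = 0.116), without siCtrl BV6 replicate 3 it was -0.65 (adjusted p = 0.0862), and within slides 1 and 2 it was -0.20 and -1.09. RRM2 at -0.44 and GINS4 at -0.43 were the next lowest, and RFC4 at 0.35, GINS2 at 0.24 and RFC3 at 0.19 the highest, none called. Of the 36 genes, 20 had the same sign without and with BV6.

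**Figure D2:**
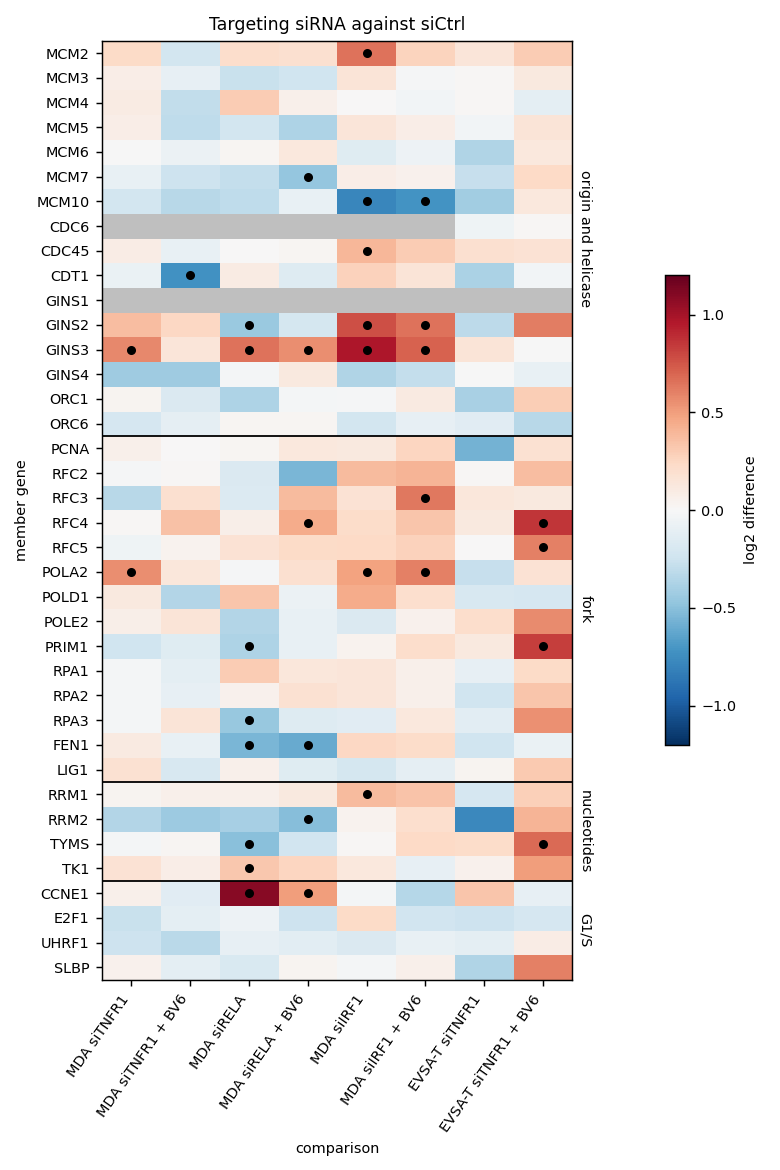
siRNA minus siCtrl (log2 difference, colours clipped at 1.2 in each direction) for 38 genes in rows and 8 comparisons in columns, a dot marking a call and grey a gene not tested. GINS3 is positive in all columns of untreated MDA-MB-231, CCNE1 is highest with siRELA, and MCM10 is lowest with siIRF1.

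**Figure D3:**
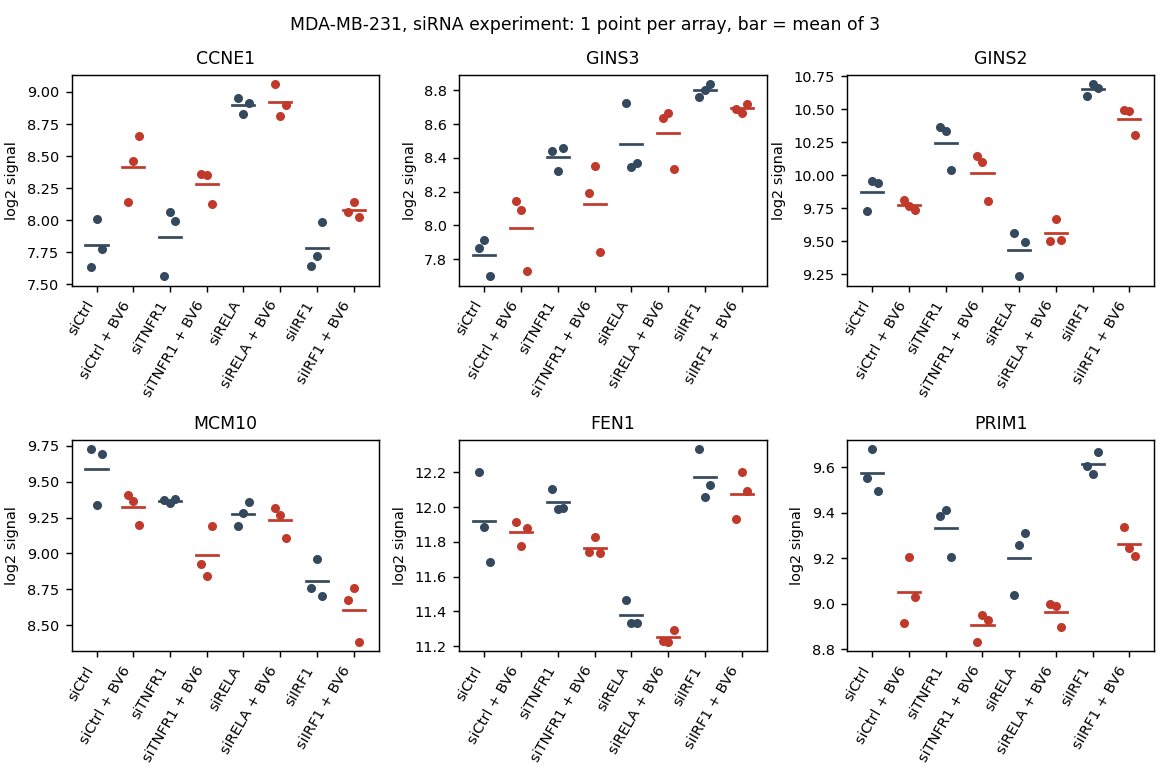
Normalized log2 signal of CCNE1, GINS3, GINS2, MCM10, FEN1 and PRIM1 on each of the 24 arrays of transfected MDA-MB-231 cells, with a bar at the mean of the 3 arrays of each group. CCNE1 lies near 9 in both siRELA groups, whereas GINS2 and GINS3 are highest with siIRF1 in untreated cells.

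The kinetic experiment asked how the response developed over time in cells without siRNA. Each time point was compared with the mean of the 6 untreated arrays, which all 5 comparisons share. At 3, 6, 9 and 12 h none of the 35 genes tested was called, with 1, 1, 0 and 8 at an unadjusted p under 0.05 in limma (11%, 7.74%, 11.2% and 19.2% of all genes), and 0.39%, 0.544%, 1.24% and 4.24% of all genes called. Leaving out BV6 3 h replicate 1 gave 2 calls at 3 h.

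At 15 h, LIG1, MCM6 and GINS4 fell, 3 of 35 against 7.06% of all genes (3.13% for lower levels). LIG1, the ligase that seals Okazaki fragments, read 7.63 and 7.82 at 15 h against 8.08 to 8.46 on the untreated arrays (-0.54 ± 0.13, adjusted p = 0.0209). MCM6, a subunit of the ring, read 10.51 and 10.65 against 10.82 to 11.25 (-0.51 ± 0.13, adjusted p = 0.0304). GINS4 read 7.35 and 7.82 against 7.997 to 8.41 (-0.63 ± 0.18, adjusted p = 0.0461). All 3 lay below every untreated array.

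TYMS just missed the threshold at -0.53 (adjusted p = 0.0526), and passed with the replicate number as a block (adjusted p = 0.0327). Its untreated arrays themselves ran from 12.08 and 12.00 at 0 h to 11.70 and 11.51 at 15 h. Of 35 genes, 33 were below 0 at 15 h, against 57.1% of all genes, and 13 did not overlap the untreated arrays on the low side (15.1% of all genes) and 1 on the high side (11.4%). CCNE1 at 0.36 and CDT1 at 0.34 were the 2 above 0, not called. The median over the genes was -0.04 at 3 h, -0.08 at 6 h, -0.10 at 9 h, -0.15 at 12 h and -0.20 at 15 h. Over all genes it ran from -0.02 at 3 h to -0.05 at 15 h. PRIM1 stood at -0.02, -0.12, -0.31, -0.38 and -0.45 at these times, and CCNE1 at -0.07, 0.17, 0.34, 0.19 and 0.36, without a call.

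Untreated cells drifted too: between 0 and 15 h 27 of 35 genes were below 0, with a median of -0.13, while 0 genes of all tested were called and 5 of the 35 had an unadjusted p under 0.05, as had 2.89% of all genes. Against the untreated 15 h arrays alone, 0 genes were called at 15 h of BV6, 23 of 35 were below 0, and LIG1, MCM6 and GINS4 stood at -0.45, -0.48 and -0.58 (adjusted p 0.141, 0.12 and 0.166). Leaving out BV6 15 h replicate 1 or 2, which leaves 1 array there, left 0 calls, and leaving out untreated 0 h or 9 h replicate 1 left 1. Untreated arrays and the first BV6 replicates were on slide 3 and the second BV6 replicates of 6 to 15 h on slide 4, and on slide 3 alone 0 were called, with LIG1, MCM6 and GINS4 at -0.64, -0.58 and -0.86. Among related genes at 15 h, POLA1 (-0.69, adjusted p = 0.00704) and the chromatin assembly gene CHAF1B (-0.63, adjusted p = 0.0177) fell, and CDKN1A rose by 0.84 (adjusted p = 0.0116). These values are against the mean of all untreated arrays, and none is given against the 15 h arrays alone.

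In siCtrl EVSA-T cells, BV6 for 9 h lowered 7 of 37 genes tested and raised none. They were the nucleotide supply genes RRM2 and TYMS, the fork genes RFC2, RFC4, POLE2 and RPA2, and SLBP. RRM2, the small subunit of ribonucleotide reductase, read 9.57 and 9.56 without BV6 and 8.28 and 8.49 with it. The groups were far apart, and RRM2 fell by 1.18 ± 0.23 (adjusted p = 0.00759), a 2.27-fold change.

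TYMS read 10.82 and 10.68 without BV6 and 10.05 and 9.98 with it (-0.73 ± 0.17, adjusted p = 0.0186). SLBP read 9.82 and 9.44 against 8.84 and 8.92 (-0.75 ± 0.19, adjusted p = 0.0289). RFC4 read 10.30 and 10.10 against 9.63 and 9.26 (-0.75 ± 0.21, adjusted p = 0.043). In none of these did the groups overlap, but on a second probe SLBP stood at -0.26 (adjusted p = 0.627) and RFC4 at -0.39 (adjusted p = 0.338). RFC2 fell by 0.66 (adjusted p = 0.0333), although a second probe of RFC2 read 0.04. POLE2, a subunit of the leading strand polymerase, fell by 0.67 (adjusted p = 0.0364) and RPA2 by 0.62 (0.0411).

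Over all genes, 11.5% were called and 4.64% for lower levels. By role, 0 of 15 helicase genes were called, with a median of -0.29 and 13 below 0, and 4 of 14 fork genes (median -0.46) and 2 of 4 nucleotide genes (median -0.65) were called. A difference between roles was not tested, and the helicase genes GINS2 and MCM5, not called, stood at -0.58 each. In all, 33 of 37 were below 0, against 61.2% of all genes, with a median of -0.44 against -0.10. Groups did not overlap for 29 genes on the low side (34.6% of all genes) and 1 on the high side (20.6%). The highest values were GINS3 at 0.43, E2F1 at 0.28 and ORC6 at 0.14, none called. Leaving out 1 array leaves 1 in its group, and the count was then 0 without untreated or BV6 replicate 1, and 1 without either replicate 2 (SLBP and RRM2, respectively). Differences moved less than calls for RRM2 (-1.08 to -1.28), TYMS (-0.66 to -0.80), POLE2 (-0.62 to -0.71) and RFC2 (-0.60 to -0.72). The others moved more: RFC4 ranged from -0.57 to -0.93 and RPA2 from -0.51 to -0.73, and SLBP stood at -0.56 without untreated replicate 1.

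Related genes in these cells included CDKN1A, which rose by 2.48 ± 0.19 (adjusted p = 1.01e-05), CCND1 (1.09), MYC (1.07) and the pocket protein gene RBL1, which fell by 1.08 (adjusted p = 0.00251). Of 29 mitotic genes 0 rose and 2 fell, with a median of -0.28, and of 28 other replication genes 1 rose and 0 fell. The mitotic list lay below 0 alongside the replication genes, and its part in their values was not tested.

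With TNFR1 siRNA, BV6 called none of the 37 genes in EVSA-T (2 at an unadjusted p under 0.05 in limma, against 3.35% of all genes), and 0.0725% of all genes. RRM2 read 9.16 and 8.42 without BV6 and 8.83 and 8.76 with it. These groups overlapped, and the difference was 0.01 with a 95% interval from -0.50 to 0.52. RRM2 was thus also lower in untreated siTNFR1 than in untreated siCtrl cells on these arrays, by a difference of -0.78 that was not called (adjusted p = 0.445). In that comparison 0 genes of 37 were called (2 at an unadjusted p under 0.05 in limma, against 7.32% of all genes), and 0.0363% of all genes. RRM2 was the lowest, PCNA followed at -0.57, and CCNE1 was the highest at 0.34.

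In BV6-treated EVSA-T cells, RFC4, PRIM1, TYMS and RFC5 were higher with siTNFR1 than with siCtrl, 4 of 37 against 11.4% of all genes (4.46% for higher levels). RFC4 read 10.07 and 10.54 against 9.63 and 9.26 (0.86 ± 0.21, adjusted p = 0.0251). PRIM1 read 9.24 and 9.94 against 8.85 and 8.67 (0.83 ± 0.23, adjusted p = 0.0396). TYMS read 10.62 and 10.78 against 10.05 and 9.98 (0.68 ± 0.17, adjusted p = 0.0266).

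None of these groups overlapped, as for every call between 2 groups, and RFC5 stood at 0.60 (adjusted p = 0.0444). On second probes RFC4 stood at 0.58 (adjusted p = 0.147) and PRIM1 at 0.68 (adjusted p = 0.0729), not called. This comparison shares the siCtrl BV6 arrays with the BV6 comparison in siCtrl cells. Calls fell to 1 without siCtrl BV6 replicate 1, 2 without siTNFR1 BV6 replicate 1 and 0 without either replicate 2.

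The test of whether the BV6 response itself differed between siTNFR1 and siCtrl EVSA-T cells called 0 of 37, against 3.86% of all genes, and 8 had an unadjusted p under 0.05 in limma, as had 15.6% of all genes. RRM2 was highest at 1.19 ± 0.33 (adjusted p = 0.0836), followed by SLBP at 0.97 (adjusted p = 0.089) and GINS2 at 0.92 (adjusted p = 0.17). The median was 0.36 against 0.09 over all genes. With the replicate number as a block, RRM2 was called (adjusted p = 0.0415). For CDKN1A the difference in response was -2.41 (adjusted p = 0.000669) and for RBL1 1.04 (adjusted p = 0.0446).

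**Figure D4:**
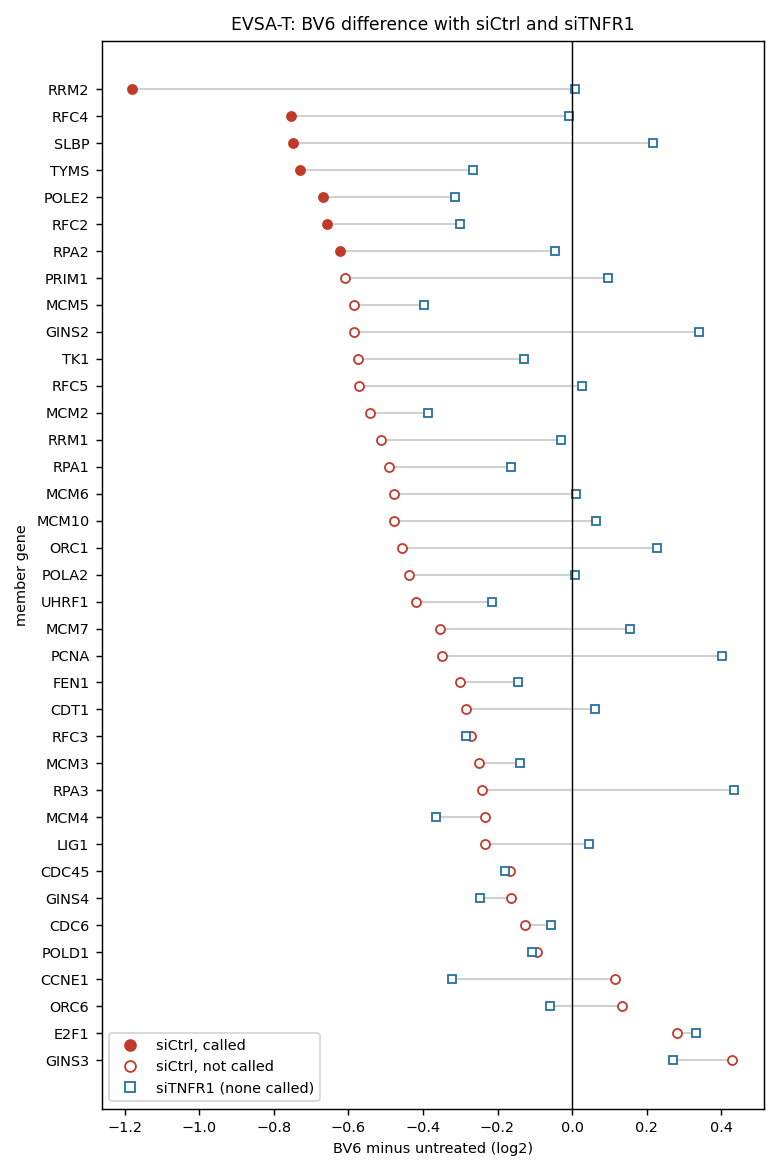
BV6 minus untreated (log2 difference) for 37 genes in EVSA-T cells with siCtrl (circles, filled where called) and siTNFR1 (squares). RRM2 is at -1.18 with siCtrl and 0.01 with siTNFR1, and 33 of 37 circles lie below 0.

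The response of the 2 cell lines was compared over arrays normalized together. RRM2 differed: in siCtrl cells, its BV6 response was lower in EVSA-T than in MDA-MB-231 (-1.27 ± 0.27, adjusted p = 0.00207), 1 of 38 genes against 5.82% of all genes. In MDA-MB-231 with siCtrl, RRM2 stood at 0.13 (adjusted p = 0.793). The other low values were RFC2 at -0.71 and MCM2 at -0.61, not called. Doses differed between the lines, 5 nM in EVSA-T and 50 nM in MDA-MB-231, so that line, dose and slide cannot be told apart.

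The lines also differed before treatment. In untreated siCtrl cells, 20 genes were higher and 3 lower in EVSA-T than in MDA-MB-231, 23 of 38, against 60.6% of all genes called (31.8% higher and 28.7% lower). Calls in either direction were thus as common among all genes as among the replication genes. Cell line and slide cannot be told apart here. Helicase genes made up most of those higher, 12 of 16 with a median of 0.93, against 5 of 14 fork genes with a median of 0.25. This difference between roles was not tested.

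POLA2 showed the widest difference: it read 10.45 and 10.59 in EVSA-T and 8.27, 7.77 and 7.41 in MDA-MB-231, where 2 of 3 arrays detected it. That is a difference of 2.70 ± 0.16 (adjusted p = 5.51e-17). CDT1 (1.83), RFC2 (1.80), GINS2 (1.67), GINS3 (1.26) and MCM4 (1.25) followed. In the other direction stood UHRF1 (-1.10, adjusted p = 8.13e-05, with a second probe at -0.10), TYMS (-0.73, adjusted p = 2.69e-05) and SLBP (-0.38, adjusted p = 0.0142, with a second probe at -1.08). CDC6 passed the test too, but was detected on 0 of 2 EVSA-T and 1 of 3 MDA-MB-231 arrays, so no fold is given. It is nevertheless counted among the 20 higher genes and the 12 higher helicase genes.

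Over all 20 groups, 12 genes had every EVSA-T group mean above every MDA-MB-231 group mean, among them MCM4, MCM5, MCM7, CDC45, CDT1, GINS2, GINS3 and POLA2, against 24.4% of all genes. CDC6 is also among these 12, but was detected on 5 of 48 arrays, only 1 of them from MDA-MB-231. It thus passed the detection filter only through EVSA-T, the line where it is higher. E2F1, also among them, was detected on 14 arrays. UHRF1, TYMS and SLBP had every EVSA-T mean below, as had 23.1% of all genes. Mitotic genes stood otherwise: of 30, 2 were higher and 23 lower in EVSA-T, with a median of -0.61. Without EVSA-T replicate 2 the count was 16.

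**Figure D5:**
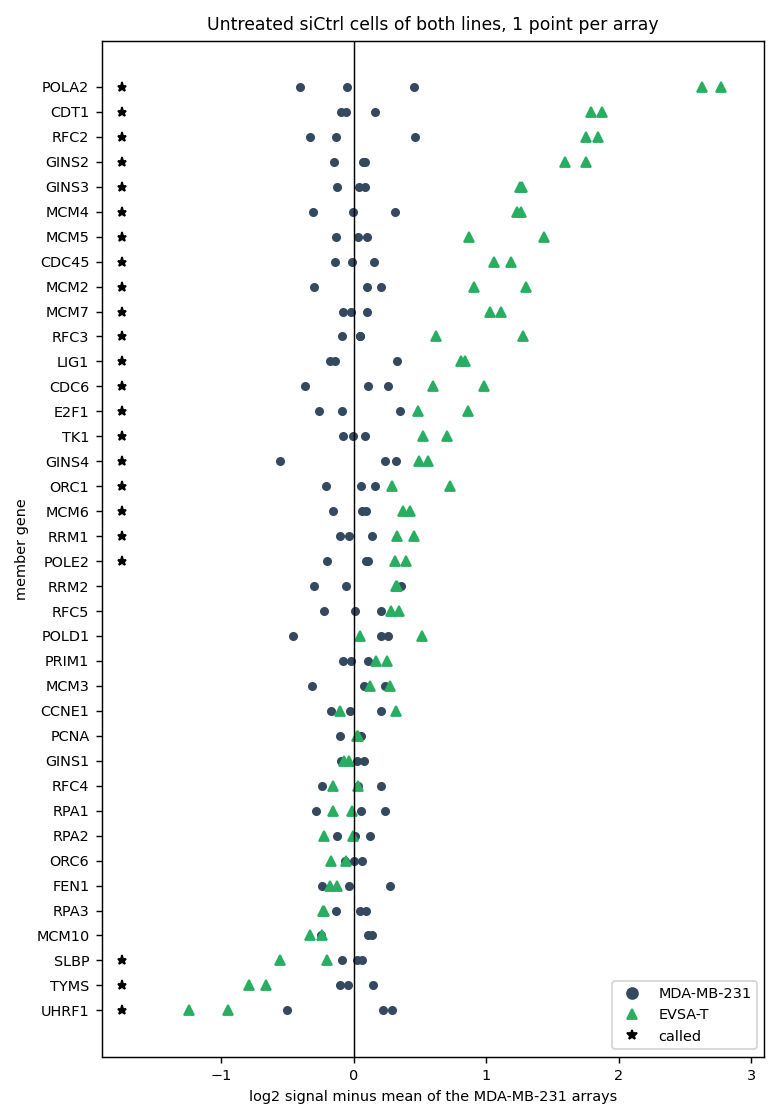
Log2 signal of each untreated siCtrl array relative to the mean of the 3 MDA-MB-231 arrays, for 38 genes, by cell line, with a star where the difference was called. POLA2 lies furthest up in EVSA-T, and UHRF1 furthest down.

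Transfected and untransfected MDA-MB-231 cells came from separate experiments and slides, so that transfection, experiment and slide cannot be told apart. At 9 h without BV6, 7 genes of 38 were lower in siCtrl than in untransfected cells and none higher, against 11.8% of all genes called (7.02% lower). CDC45 (-0.69, adjusted p = 0.000323), GINS3 (-0.68, adjusted p = 0.000596) and POLE2 (-0.63, adjusted p = 0.00289) were lowest, followed by LIG1, GINS2, RPA1 and RRM1. A second probe of RPA1 was not called (-0.40, adjusted p = 0.207). GINS3, higher with each of the 3 targeting siRNAs than with siCtrl, was thus also higher in cells with no siRNA. The median was -0.31 against -0.02 over all genes. The count was 3 without untransfected replicate 1 and 4 without replicate 2.

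Over all 20 groups, the span between a gene's lowest and highest group mean had a median of 1.18 on the log2 scale, against a median SD within groups of 0.13. For 14 genes a further probe was detected. Across the arrays, Pearson's r between the 2 probes of a gene was 0.00289 for ORC6 and -0.267 for PCNA, and between 0.527 and 0.906 for the others. PCNA and ORC6 values therefore depend on the probe.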

How the data were processed

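RNA of 48 samples was hybridised to 1 Illumina HumanHT-12 array each. The deposited table holds 1 value per probe and array, from 5.47 to 14.9, which was read as a log2 signal and raised to the power of 2. It also gives a detection p-value in steps of 1 in 770, per the file headers. The authors also deposited a normalized log2 matrix, used as an alternative. The sources used here do not give the scanner software. Of 48107 probes, 3 were dropped for a missing value, 30112 had 1 gene symbol, 8 several and 17984 none; 0 symbols changed on matching Entrez identifiers, of which 27 were not in the reference. No 2 arrays correlated above 0.9897, so none was a copy. Precision is limited by how many arrays a group has and by signal over background.

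Each experiment (24 siRNA, 16 kinetic and 8 EVSA-T arrays) was normalized separately (neqc of limma 3.58.1 under R 4.3.3, offset 16), and all 48 together for levels across experiments and comparisons between them. A gene entered a fit when detected at p under 0.01 on 3 arrays (siRNA) or 2 (others), which left 9563, 9746, 8274 and 11212 genes. Group means were fitted with lmFit and eBayes (16, 8, 4 and 28 residual degrees of freedom), tests were two-sided, with Benjamini-Hochberg adjustment over all genes. The fits were tested on simulated data first. Of the 39 genes, 36 entered the siRNA fit, 35 the kinetic and 37 the EVSA-T fit.

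The genes and lists were chosen with earlier results of these data known. Per-array values were planned for the 8 called genes with the smallest adjusted p (CCNE1, GINS3, GINS2, MCM10, FEN1, MCM2, RFC3 and POLA2), and the 3 highest and lowest differences of a comparison were named. Replicate numbers come from the labels. Same-numbered arrays deviated together in every pair (r over 0.1, with at least 3 pairs) for BV6 with siCtrl (0.126 to 0.24) and siIRF1 (0.174 to 0.311), siRELA and siIRF1 with BV6 (lowest 0.167 and 0.101), the 6 to 15 h kinetic comparisons (lowest 0.152) and the EVSA-T difference in response (lowest 0.16). Alternatives were the authors' matrix, joint normalization, other detection filters and probes, a replicate or slide block, single slides, time-matched untreated cells and leaving out each array. Figures were drawn with matplotlib 3.10.9.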

Additional observations from a re-analysis of the deposited data

Results flagged for a closer look

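RRM2, the small subunit of ribonucleotide reductase, responded to BV6 differently in the 2 cell lines by a test of the difference itself: its log2 response in siCtrl cells was lower in EVSA-T than in MDA-MB-231 by a difference of -1.27 ± 0.27 (limma, adjusted p = 0.00207). RRM2 fell in both EVSA-T arrays with BV6 and stood at 0.13 in MDA-MB-231. The call held under all 14 alternatives that included RRM2, with values from -1.45 to -1.09. Dose, slide and cell line cannot be told apart.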

How the results depend on the processing

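Counts below are genes called among the replication genes, and the cause of a change was not tested unless fewer samples or genes bring it about. Calls were fewer on a single slide, which holds fewer arrays, and 1 in some groups. Slide 1 alone gave 0 calls for BV6 with siCtrl in MDA-MB-231, 0 for siTNFR1 untreated, 0 for siTNFR1 with BV6, 3 for siRELA untreated, 3 for siRELA with BV6, 4 for siIRF1 untreated and 0 for siIRF1 with BV6. Slide 2 alone gave 0, 1, 0, 1, 0, 4 and 2 for these. Slide 3 alone and time-matched untreated cells gave 0 at 15 h. A slide block gave 4 for BV6 with siCtrl and 2 for BV6 with siTNFR1. The replicate block gave 4 for BV6 with siCtrl, 8 for siIRF1 with BV6 and 1 for the EVSA-T difference in response. For siRELA with BV6 it added RFC2 (adjusted p = 0.021), and at 15 h TYMS (adjusted p = 0.0327). Where the replicates were not paired by the check, it gave 2 for BV6 with siTNFR1 in MDA-MB-231 (POLA2 and PRIM1) and added RRM2 for siRELA untreated. In EVSA-T it added RFC5 and TK1 for BV6 with siCtrl, and POLE2 and SLBP for siTNFR1 with BV6, again not paired by the check. The authors' matrix gave 1 for siTNFR1 untreated in MDA-MB-231 and 1 for the EVSA-T difference in response. With no detection filter, BV6 with siTNFR1 gave 1, siTNFR1 untreated 1 and siTNFR1 with BV6 in EVSA-T 2. With detection required on every array, BV6 with siTNFR1 gave 1, siTNFR1 untreated 1 and the comparison of lines 15. The second brightest probe exists for 14 genes at most. It gave 1 for BV6 with siCtrl, 0 for siTNFR1 untreated, 0 for siTNFR1 with BV6, 4 for siRELA untreated, 3 for siRELA with BV6, 2 for siIRF1 untreated, 2 for siIRF1 with BV6, 0 at 15 h, 2 for BV6 and 1 for siTNFR1 with BV6 in EVSA-T, 7 between lines, 2 for siCtrl against untransfected cells and 0 for the difference in response between lines. RFC2 with BV6 in EVSA-T turned from -0.66 to 0.039 (adjusted p = 0.948) on its second probe. Leaving out single arrays gave 1 to 2 for BV6 with siCtrl, 0 to 2 for siTNFR1 untreated, 0 to 1 for siTNFR1 with BV6, 6 to 8 and 4 to 6 for siRELA, 4 to 7 and 5 to 6 for siIRF1, 0 to 2 at 3 h, 0 to 4 at 15 h, 0 to 1 for BV6 and 0 to 2 for siTNFR1 with BV6 in EVSA-T, 0 to 1 for the EVSA-T difference in response, 16 to 24 between lines, 3 to 8 for siCtrl against untransfected cells and 1 to 2 for the difference in response between lines. Elsewhere it gave 0. Of the 35 calls on slide-block fits, 35 held, and with the authors' matrix 73 held and 3 were lost.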
